A study of Homo sapiens with 6 samples.

Results

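The FANC genes are named after Fanconi anemia, an inherited disease of bone marrow failure, cancer and extreme sensitivity to agents that crosslink DNA. The 10 members FANCA, FANCB, FANCC, FANCD2, FANCE, FANCF, FANCG, FANCI, FANCL and FANCM were chosen by gene symbol, and all 10 were found among the 25662 rows of the deposited expression table. The RNA came from HCT116, an established cell line of human colorectal carcinoma, and was sequenced from 3 control siRNA and 3 RRN3 siRNA transfections. RRN3 is the factor that recruits RNA polymerase I to ribosomal RNA genes. The design text describes biological replicates, while the sources used here give neither the siRNA sequence nor its dose nor the time after transfection. All results are from this 1 line. Levels are in TPM, an abundance scaled for transcript length and for the total of each library.

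The FANC proteins repair interstrand crosslinks, lesions that join both DNA strands and block replication forks. FANCM and its partners bind the stalled fork and anchor the core complex, a ubiquitin ligase built from FANCA with FANCG, FANCB with FANCL, and FANCC with FANCE and FANCF. The core complex attaches ubiquitin to FANCD2 and FANCI, and the modified pair then directs nucleases, bypass polymerases and recombination proteins to the crosslink. The pathway acts mainly in S phase, and several of its genes are known to be transcribed more in dividing cells.

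RRN3 itself was at 20.9, 14.7 and 14.1 TPM under control siRNA, and its own siRNA left 2.70, 1.22 and 0.925 TPM. The groups did not overlap, with a limma adjusted p of 0.000301 and an exact two-sided permutation p of 0.1, the smallest that 3 against 3 libraries allow. All 6 listed markers of colorectal epithelium were present, with summed levels of 5777 to 6852 TPM in control siRNA and 12736 to 13924 TPM in RRN3 siRNA libraries. KRT8, KRT18 and KRT19 rose, to 229%, 229% and 201% of control, while EPCAM, CDH1 and CLDN4 did not pass (108%, 126% and 111% of control). Of 7 markers of blood, stromal and endothelial cells, 6 were examined and CD3E and COL1A2 were listed at 0 in every library. The sum of those 6 was 15.8 to 19.9 TPM in control siRNA and 7.76 to 8.53 TPM in RRN3 siRNA libraries, most of it from CD68 and COL1A1. CD68 fell from 8.29 ± 0.880 to 0.737 ± 0.154 TPM (limma adjusted p = 5.37e-05). COL1A1, at 9.30 ± 1.03 and 7.17 ± 0.419 TPM, did not pass (limma adjusted p = 0.102). The part of these genes in the results was not tested. Both libraries numbered 1 stood apart on the second principal component (23.4% of the variance), at 17.8 and 31.6 against -5.12 or lower in the others. In these 2 libraries the deviation of a gene from its group mean fell with its GC content (correlations across genes of -0.457 and -0.508, which describe the libraries only). The correlations were 0.413 and 0.0773 in control siRNA 2 and 3, and 0.17 and 0.46 in RRN3 siRNA 2 and 3. Deviations within a group offset each other, so these values do not show which libraries carry the GC trend.

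The stretches around the transcription start are shown for 5 members whose changes are compared below, FANCG, FANCA, FANCE and FANCD2, which fell, and FANCF, which did not. Each holds 250 bases before and 50 after the annotated start, read 5′ to 3′ on the gene's own strand from RefSeq promoters on GRCh38.p14. The windows are chr9:35079893-35080192 on the minus strand for FANCG, chr16:89816598-89816897 on the minus strand for FANCA, chr6:35452088-35452387 on the plus strand for FANCE, chr3:10026187-10026486 on the plus strand for FANCD2 and chr11:22625774-22626073 on the minus strand for FANCF. Capitals mark, on either strand, E2F-like heptamers (the heptamer TTCCCGC and its variants, which are TTGGCGC as well as TTCGCGC and lastly TTGCCGC), the NF-Y box CCAAT, and the cell cycle homology region hexamers, TTTGAA in 1 form and TTCGAA in the other.
FANCG: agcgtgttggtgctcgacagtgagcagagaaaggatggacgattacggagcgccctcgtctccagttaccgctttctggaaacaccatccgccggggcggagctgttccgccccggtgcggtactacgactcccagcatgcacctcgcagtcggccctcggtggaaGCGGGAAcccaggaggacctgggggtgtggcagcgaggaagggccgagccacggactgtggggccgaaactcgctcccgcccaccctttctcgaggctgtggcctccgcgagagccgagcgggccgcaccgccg
FANCA: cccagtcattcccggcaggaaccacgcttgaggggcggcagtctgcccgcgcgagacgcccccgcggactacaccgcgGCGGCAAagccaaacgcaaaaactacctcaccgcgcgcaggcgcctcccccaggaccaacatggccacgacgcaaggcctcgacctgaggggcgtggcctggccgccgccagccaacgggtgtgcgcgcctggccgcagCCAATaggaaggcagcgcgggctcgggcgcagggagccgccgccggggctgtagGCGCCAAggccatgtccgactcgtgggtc
FANCE: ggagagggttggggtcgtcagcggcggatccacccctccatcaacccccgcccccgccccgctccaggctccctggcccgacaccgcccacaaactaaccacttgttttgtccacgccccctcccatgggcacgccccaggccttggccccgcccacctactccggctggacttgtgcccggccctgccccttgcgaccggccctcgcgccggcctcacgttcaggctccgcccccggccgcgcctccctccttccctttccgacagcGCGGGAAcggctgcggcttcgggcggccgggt
FANCD2: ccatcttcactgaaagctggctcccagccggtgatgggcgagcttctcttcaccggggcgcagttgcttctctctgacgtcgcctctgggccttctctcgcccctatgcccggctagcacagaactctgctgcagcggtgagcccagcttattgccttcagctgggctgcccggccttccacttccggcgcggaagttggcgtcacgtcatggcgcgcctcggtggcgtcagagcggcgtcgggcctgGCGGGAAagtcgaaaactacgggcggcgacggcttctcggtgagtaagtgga
FANCF: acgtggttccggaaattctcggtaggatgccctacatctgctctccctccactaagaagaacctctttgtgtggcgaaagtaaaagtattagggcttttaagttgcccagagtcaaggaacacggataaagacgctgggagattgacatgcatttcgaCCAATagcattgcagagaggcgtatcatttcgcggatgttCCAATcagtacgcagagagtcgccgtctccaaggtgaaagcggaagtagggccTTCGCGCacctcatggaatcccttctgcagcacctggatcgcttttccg

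An E2F-like heptamer was found in the promoter windows of all 7 tested members that have one in the table, which are FANCA, FANCC, FANCD2, FANCE, FANCF, FANCG and FANCL. FANCI is not in the promoter table, and the windows of FANCB and FANCM held no such heptamer. The same heptamers occur in 4553 of all 35116 windows, and in 25.5% of the 9551 genes that had both a window and a mean of at least 1 TPM. The matches lay across the start in FANCD2 (bases -2 to 4, counted from 0 at the annotated start), after it in FANCF (1 to 7) and FANCE (18 to 24), and before it in FANCG (-84 to -78). FANCA had 2, at -172 to -166 and 21 to 27. The NF-Y box was present in FANCA, FANCF and FANCM, 3 of the 9 members with a window and 2 of the 7 tested ones. It occurs in 34.6% of all windows and in 43.3% of the same 9551 genes. A cell cycle homology hexamer was present in 1 of the 9, FANCC, against 16.4% of all windows and 14.5% of those genes. These are letter matches only, and the window of FANCF held an E2F-like heptamer as did those of members that fell.

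After RRN3 siRNA 7 of the 8 FANC genes tested fell, 0 rose and FANCF did not pass the test. The falls were 1.95-fold to 4.14-fold in mean TPM, and FANCG, the second most abundant member in control cells, had the largest fall. FANCA came next, except without RRN3 siRNA replicate 1, where the log2 change was -1.64 for FANCI and -1.49 for FANCA. The median log2 change of the 8 was -1.05, against -0.05 over all 12157 genes tested. Among all genes tested 19.0% fell and 11.2% rose at the same threshold, a limma Benjamini-Hochberg adjusted p under 0.05 on log2(TPM + 1). In 7 of the 8 genes the 3 RRN3 siRNA libraries all lay below the 3 control siRNA libraries, which was so for 26.9% of all genes tested. Each of the 8 was at 2.52 TPM or more in every library, so none was kept by 1 group alone. FANCB and FANCM had means under 1 TPM and were not tested. In bulk RNA, less transcript per cell cannot be told apart from fewer cells that carry the transcript.

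The split of all genes into 1367 that rose and 2312 that fell depended on scaling. It was 2055 and 2037 with median-of-ratios scaling, 2205 and 2284 under quantile normalization and 2788 and 2657 with the GC trend of each library removed, and 7 FANC genes fell under each of these. Without RRN3 siRNA replicate 2 the numbers for all genes were 788 and 1452, and 6 FANC genes fell.

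**Figure D1:**
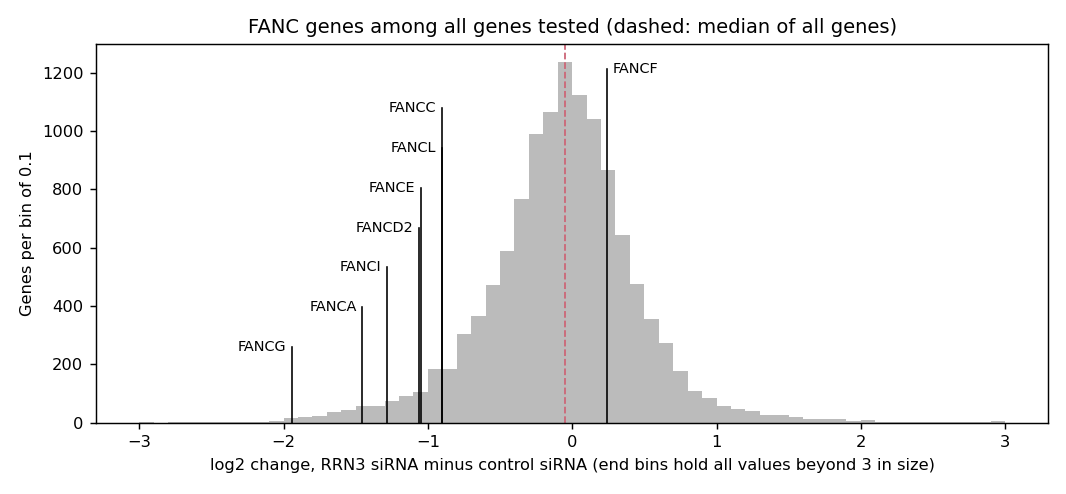
Histogram of the log2 change (RRN3 siRNA minus control siRNA, on log2(TPM + 1)) of 12157 genes, with black lines at the 8 FANC genes tested and a dashed line at the median of all genes, -0.05. The lines' heights separate the labels and carry no value. FANCG, FANCA, FANCI, FANCD2, FANCE, FANCL and FANCC lie at -0.90 or below, and FANCF at 0.24.

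FANCA and FANCG bind each other with FAAP20 in 1 module of the core complex, FANCA holding the complex in the nucleus and on chromatin. FANCG was at 36.6, 39.3 and 39.3 TPM under control siRNA and at 9.31, 9.65 and 8.86 TPM under RRN3 siRNA. The groups were far apart, and FANCG fell 4.14-fold (38.4 ± 1.55 to 9.28 ± 0.395 TPM, SD, n = 3 per group). The log2 change of FANCG was -1.94 (SE 0.10, limma adjusted p = 2.46e-05). FANCA was at 53.2, 50.8 and 51.4 TPM in control siRNA and at 19.3, 19.8 and 16.1 TPM in RRN3 siRNA libraries. The groups were far apart relative to their spread, and FANCA fell to 35.4% of control (log2 change -1.45, SE 0.10, limma adjusted p = 7.93e-05). FAAP20, which stabilises FANCA and binds ubiquitin, fell less, from 50.9 ± 1.84 to 35.6 ± 1.60 TPM (log2 change -0.50, SE 0.08). The 95% confidence interval of the log2 change was -2.17 to -1.71 for FANCG, -1.70 to -1.21 for FANCA and -0.70 to -0.31 for FAAP20, and these intervals did not overlap, although the differences themselves were not tested.

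The ratios of transcripts within this module restate the unequal falls above for each library. The ratio of FANCA to FANCG in TPM was 1.45, 1.29 and 1.31 in control siRNA and 2.07, 2.05 and 1.81 in RRN3 siRNA libraries. The ratio of FANCG to FAAP20 was 0.754 ± 0.0118 in control siRNA and 0.261 ± 0.0200 in RRN3 siRNA libraries. Both ratios separated the groups, but how often ratios of other gene pairs do so was not examined.

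FANCC, FANCE and FANCF form a second module, in which FANCE contacts FANCD2 and FANCF is the adaptor to the rest of the complex. FANCE was at 16.7, 16.6 and 17.1 TPM in control siRNA and at 7.33, 8.05 and 7.43 TPM in RRN3 siRNA libraries. Its replicates were close together in both groups, and it fell to 45.3% of control (log2 change -1.05, SE 0.11, limma adjusted p = 0.000447). FANCC was at 13.5, 13.2 and 13.3 TPM in control siRNA and at 8.70, 5.49 and 6.17 TPM in RRN3 siRNA libraries. RRN3 siRNA replicate 1 was the highest of its group but below each control, and FANCC fell to 51.0% of control (log2 change -0.90, SE 0.17, limma adjusted p = 0.00551).

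FANCF, a gene with a single exon, was the tested member that did not fall. It was at 3.16, 3.05 and 2.52 TPM in control siRNA and at 4.13, 3.70 and 3.05 TPM in RRN3 siRNA libraries. The groups overlapped, with 2 RRN3 siRNA libraries above every control and the third within the control range. Its log2 change was 0.24 (SE 0.16, 95% confidence interval -0.13 to 0.61, limma adjusted p = 0.309), and no interval of the 7 genes that fell reached above -0.46. The ratio of FANCE to FANCF was 5.27, 5.44 and 6.78 in control siRNA and 1.77, 2.18 and 2.44 in RRN3 siRNA libraries. That of FANCC to FANCF was 4.28, 4.31 and 5.28, and then 2.11, 1.49 and 2.03. Neither ratio overlapped between the groups, and both were lower under RRN3 siRNA. This follows from the changes of the 3 genes given above and is no separate result. The ratio of FANCC to FANCE overlapped between the groups, at 0.794 ± 0.0165 and 0.900 ± 0.260.

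FANCL carries the ubiquitin ligase activity of the core complex and works in a module with FANCB and FAAP100. FANCL was at 12.7, 12.1 and 13.1 TPM in control siRNA and at 8.78, 5.49 and 5.13 TPM in RRN3 siRNA libraries. The groups did not overlap, RRN3 siRNA replicate 1 again being the highest of its group, and FANCL fell to 51.2% of control (log2 change -0.90, SE 0.19, limma adjusted p = 0.0096). FAAP100 fell from 27.7 ± 1.36 to 16.1 ± 1.31 TPM (log2 change -0.75, SE 0.11). FANCB, the scaffold of this module, was at 0.442, 0.342 and 0.359 TPM in control siRNA and at 0.137, 0.871 and 0.119 TPM in RRN3 siRNA libraries. RRN3 siRNA replicate 2 was the highest of all 6 and the other 2 were the lowest, so FANCB showed no common direction. Without a filter on low values its log2 change was -0.05 (limma adjusted p = 0.908).

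FANCM, the DNA translocase that recognises the stalled fork, was at 0.718, 0.313 and 0.381 TPM in control siRNA and at 0.282, 0.115 and 0.310 TPM in RRN3 siRNA libraries. The lowest control value exceeded the highest RRN3 siRNA value by a small margin. Without a filter on low values the log2 change of FANCM was -0.25 (limma adjusted p = 0.263), a scale that understates changes of genes this low. Its partner FAAP24 fell from 4.44 ± 0.707 to 1.82 ± 0.976 TPM (2.45-fold, limma adjusted p = 0.0233). The FAAP24 call ended without a filter (adjusted p = 0.0665) and without control siRNA replicate 1, 2 or 3 or RRN3 siRNA replicate 2 (adjusted p = 0.073, 0.075, 0.058 and 0.0686). Of the histone-fold pair that binds FANCM, CENPX fell from 212 ± 18.2 to 135 ± 15.9 TPM, while CENPS was at 13.3, 9.36 and 10.7 TPM and then at 9.68, 9.45 and 6.77 TPM (log2 change -0.33, adjusted p = 0.216).

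FANCD2 and FANCI form the clamp that the core complex ubiquitinates. FANCD2 was at 13.4, 9.60 and 8.77 TPM in control siRNA and at 4.43, 4.09 and 4.98 TPM in RRN3 siRNA libraries. The control libraries spread more widely than the RRN3 siRNA libraries, the groups did not overlap, and FANCD2 fell to 42.4% of control (log2 change -1.06, SE 0.18, limma adjusted p = 0.00351). A pseudogene of FANCD2, FANCD2P2, lies on the same chromosome and was not analysed here, and reads can be split between copies of a sequence. FANCI was at 20.9, 13.6 and 14.6 TPM in control siRNA and at 10.5, 5.04 and 3.96 TPM in RRN3 siRNA libraries. In each group replicate 1 was the highest by a wide margin, and FANCI fell to 39.8% of control (log2 change -1.28, SE 0.31, limma adjusted p = 0.0176). FANCI did not pass with no filter on low TPM (adjusted p = 0.0513), nor when control siRNA replicate 1 (0.0574) or 2 (0.0538), or RRN3 siRNA replicate 2 (0.065), was left out. Without both libraries numbered 1, which left 2 per group, FANCI held, with a log2 change of -1.46 (limma adjusted p = 3.08e-07). So small a p from so few libraries rests largely on variance that limma shares across genes. It is not stronger evidence than the full fit. FANCI also passed with a replicate block (limma adjusted p = 0.000145), although the numbers are not shown to pair libraries. The ratio of FANCD2 to FANCI was 0.643, 0.707 and 0.599 in control siRNA and 0.420, 0.811 and 1.26 in RRN3 siRNA libraries, so it did not separate the groups.

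**Figure D2:**
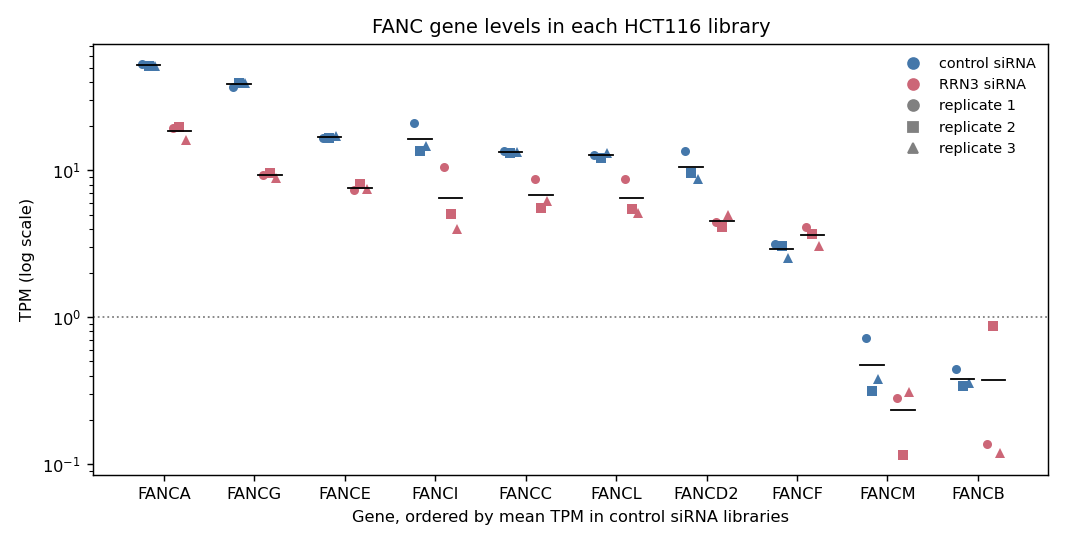
TPM (log axis) of the 10 FANC genes in each library, blue for control siRNA and red for RRN3 siRNA, with a marker shape per replicate number and a black bar at the group mean of 3 libraries. The dotted line is the minimum mean of 1 TPM for testing. FANCA is highest in both groups, FANCF is the tested gene whose groups overlap, and FANCM and FANCB lie below the line.

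The order of the members by level was partly kept after RRN3 siRNA. In control siRNA libraries it ran FANCA (51.8 TPM), FANCG (38.4), FANCE (16.8), FANCI (16.4), FANCC (13.3), FANCL (12.6), FANCD2 (10.6), FANCF (2.91), FANCM (0.471) and FANCB (0.381). Values overlapped between neighbours for FANCE and FANCI, FANCL and FANCD2, and FANCM and FANCB. In RRN3 siRNA libraries FANCA (18.4 TPM) and FANCG (9.28) had the highest means and did not overlap each other, but FANCI, at 3.96 to 10.5 TPM, spanned the whole FANCG range and was above FANCG in RRN3 siRNA replicate 1, and the range from FANCE (7.60 TPM) to FANCF (3.62) was narrower. The summed level of the 10 genes was 171, 159 and 161 TPM in control siRNA and 72.9, 62.3 and 56.1 TPM in RRN3 siRNA libraries. FANCA and FANCG together made up 55.2% ± 2.41 of that sum in control siRNA and 43.6% ± 4.08 in RRN3 siRNA libraries.

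Members also differed in how even the fall was between libraries. In FANCG the 3 RRN3 siRNA libraries were at -1.93, -1.89 and -2.0 from the control mean on the log2(TPM + 1) scale, and in FANCE at -1.09, -0.97 and -1.08. In FANCI, FANCL and FANCC RRN3 siRNA replicate 1 was at -0.57, -0.48 and -0.56, and the other 2 libraries were lower, for FANCI at -1.50 and -1.79. The longest protein-coding transcripts of FANCI, FANCL and FANCC have GC contents of 43.4%, 39.3% and 50.6%, and those of FANCG and FANCE 58.1% and 57.9% (GENCODE release 29). For FANCD2, with 44.0%, RRN3 siRNA replicate 1 was at -1.07, between the other 2. The RRN3 siRNA libraries were at -1.38, -1.35 and -1.63 for FANCA (55.4%) and at 0.40, 0.27 and 0.05 for FANCF (45.4%). With the GC trend of each library removed, the log2 changes were -1.81 for FANCG, -1.36 for FANCA and -0.92 for FANCE, and the same 7 genes passed the threshold.

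**Figure D3:**
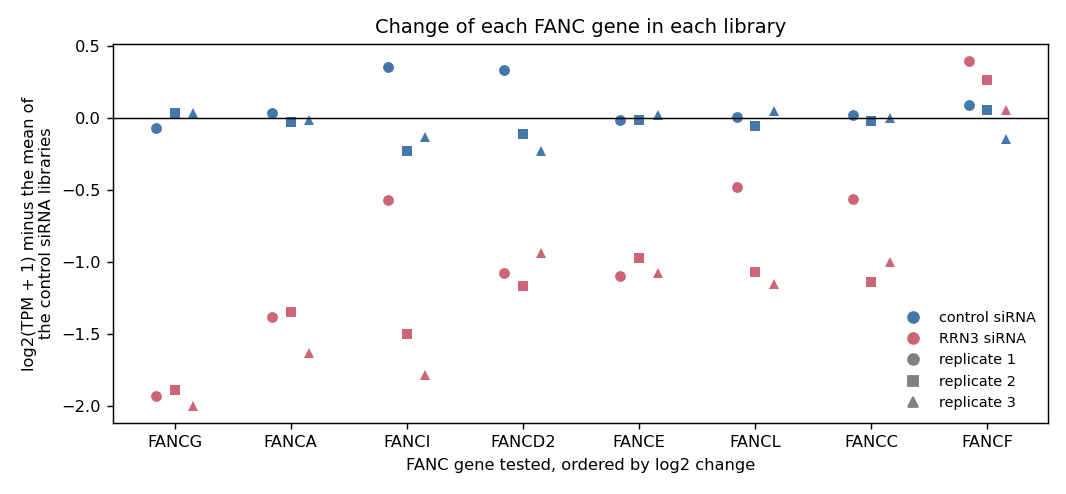
log2(TPM + 1) of the 8 FANC genes tested in each library, minus the mean of the control siRNA libraries, ordered by log2 change; colours mark the group and shapes the replicate number. RRN3 siRNA replicate 1 (red circles) lies above the other 2 red points in FANCI, FANCL and FANCC and, by less, in FANCF. It lies between them in FANCG, FANCA and FANCD2, and just below them in FANCE.

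Several members overlap or adjoin other genes in GENCODE release 29 on GRCh38, and the sources used here do not say whether reads were assigned by strand. FANCA (chromosome 16, 89737549 to 89816657, minus strand) overlaps ZNF276 on the opposite strand by 3355 bases. ZNF276 rose from 13.9 ± 1.38 to 23.2 ± 1.78 TPM (limma adjusted p = 0.00357, log2 change 0.70), the direction opposite to FANCA. FANCI (chromosome 15, 89243949 to 89317261, plus strand) overlaps POLG by 12064 bases, and POLG was at 35.0 ± 5.13 and 37.4 ± 1.67 TPM (adjusted p = 0.568). FANCF (chromosome 11, 22622890 to 22625841, minus strand) starts 332 bases from GAS2, which overlaps it by 333 bases and was at 1.41 ± 0.707 and 1.60 ± 0.156 TPM (adjusted p = 0.679). VRK2 overlaps FANCL (chromosome 2, 58159243 to 58241372, minus strand) by 678 bases and was at 6.49 ± 1.75 and 6.29 ± 1.13 TPM. FKBP3, which starts 621 bases from FANCM, fell from 37.2 ± 5.35 to 27.0 ± 3.75 TPM (adjusted p = 0.0453). The FKBP3 call ended without a variance trend or a filter (adjusted p = 0.0661 and 0.0879), and in each of the 6 fits that left out 1 library except that without RRN3 siRNA replicate 1.

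Other genes of crosslink repair were examined in 7 lists with 53 members, 47 of which were tested. Of these 28 fell, 1 rose and 18 did not pass, with a median log2 change of -0.65. Among all genes tested 19.0% fell and 11.2% rose, and the counts of each list are to be read beside these shares. Among the 5 associated core complex and anchor proteins, 4 fell, as given above. In the ubiquitin cycle of FANCD2 and FANCI, 2 of 3 fell. UBE2T, the conjugating enzyme that works with FANCL, was at 116, 98.4 and 92.9 TPM in control siRNA and at 41.7, 35.5 and 31.0 TPM in RRN3 siRNA libraries (log2 change -1.48, SE 0.13, limma adjusted p = 0.000194). USP1, which removes the ubiquitin, fell from 2.51 ± 0.337 to 1.28 ± 0.379 TPM (adjusted p = 0.0304). The USP1 call ended without a filter (adjusted p = 0.067) and in 5 of the 6 fits that left out 1 library, the exception being that without RRN3 siRNA replicate 1. Its cofactor WDR48 was at 5.81 ± 1.39 and 7.30 ± 4.31 TPM (log2 change 0.19, adjusted p = 0.727).

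Of 11 downstream genes that also carry a FANC letter 9 were tested, 5 fell and 0 rose, with a median log2 change of -0.53. MAD2L2, a subunit of the bypass polymerase zeta, fell from 113 ± 8.06 to 55.6 ± 4.05 TPM (log2 change -1.01, SE 0.09). BRCA1 fell from 2.46 ± 0.558 to 0.629 ± 0.0567 TPM and XRCC2 from 1.76 ± 0.558 to 0.537 ± 0.168 TPM. Both were under 1 TPM in every RRN3 siRNA library and reached the minimum mean through their control values. The XRCC2 call ended without RRN3 siRNA replicate 2 (adjusted p = 0.0522). XRCC2 was under the minimum, and so not tested, without control siRNA replicate 1 and with neither library numbered 1. Without control siRNA replicate 1, 3 of 8 tested genes of this list fell. RAD51C, a recombination protein, was at 41.1 ± 9.39 and 38.1 ± 7.54 TPM (log2 change -0.10, 95% confidence interval -0.53 to 0.33, adjusted p = 0.73). BRCA2 and BRIP1 had means under 1 TPM and were not tested. BRIP1 reached an adjusted p of 0.0461 with no filter on low TPM.

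Among 14 genes of unhooking, lesion bypass and other crosslink repair, 11 were tested, and the median log2 change was -0.25. Of the 11, 3 fell and 1 rose, not far from the 19.0% and 11.2% of all genes tested. EME1, a nuclease subunit, fell from 13.9 ± 1.67 to 3.21 ± 0.558 TPM (log2 change -1.83, SE 0.16), whereas its catalytic partner MUS81 was at 19.2 ± 2.17 and 15.9 ± 1.16 TPM (log2 change -0.25, adjusted p = 0.171), a gene picked with its values in view. NEIL3, a glycosylase that unhooks crosslinks, fell from 6.54 ± 0.904 to 1.89 ± 0.903 TPM, and DCLRE1B, a nuclease, from 10.9 ± 1.15 to 5.13 ± 0.732 TPM. ERCC1, the partner of the XPF nuclease, rose from 58.1 ± 2.49 to 104 ± 6.02 TPM (limma adjusted p = 0.000301, log2 change 0.83). ERCC1 overlaps POLR1G on the opposite strand, and POLR1G was at 42.3 ± 1.51 and 44.8 ± 1.45 TPM (adjusted p = 0.497). SLX1A, at 26.1 ± 2.63 and 21.1 ± 0.996 TPM, did not pass (adjusted p = 0.0812), and its values are uncertain because SLX1B is a near-identical copy.

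Of the 7 genes of the dissolvasome and RPA, which process recombination intermediates and coat single-stranded DNA, 6 fell, with a median log2 change of -0.92. RMI1 fell from 3.09 ± 0.426 to 0.578 ± 0.225 TPM, RMI2 from 18.3 ± 2.78 to 7.59 ± 0.833 TPM, RPA2 from 85.5 ± 3.26 to 51.2 ± 3.73 TPM and RPA3 from 45.6 ± 1.83 TPM to 37.3% of that level. Of the 6, RMI1 and BLM were under 1 TPM in every RRN3 siRNA library and reached the minimum mean through their control values. With a minimum mean of 5 TPM, 4 of 5 tested genes of this list fell. RPA1 did not pass, at 89.6 ± 21.1 and 63.5 ± 13.2 TPM (adjusted p = 0.115). It passed with the GC trend removed, without control siRNA replicate 3, without RRN3 siRNA replicate 1 and with neither library numbered 1 (adjusted p = 0.0223, 0.028, 0.0159 and 0.00541). In ATR signalling, the checkpoint that activates the pathway at stalled forks, 8 of 10 tested genes fell, with a median log2 change of -0.98. CLSPN, counted among the 8, had a mean of 0.670 TPM under RRN3 siRNA and reached the minimum mean through its control values. With a minimum mean of 5 TPM, 6 of 7 tested genes of the ATR list fell. CHEK1, the checkpoint kinase, fell from 17.2 ± 1.38 to 5.05 ± 1.65 TPM, and TIMELESS, of the fork protection complex, from 33.8 ± 3.61 to 10.8 ± 1.07 TPM. RAD9A, of the checkpoint clamp, fell from 26.6 ± 3.11 to 12.3 ± 0.678 TPM. HUS1, of the same clamp, was at 8.43 ± 1.20 and 8.61 ± 1.57 TPM (adjusted p = 0.942). The 2 enzymes that clear the aldehydes behind endogenous crosslinks did not pass, ALDH2, also picked so, at 26.0 ± 1.67 and 23.8 ± 1.63 TPM (adjusted p = 0.41) and ADH5 at 189 ± 10.3 and 193 ± 4.42 TPM (adjusted p = 0.76).

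**Figure D4:**
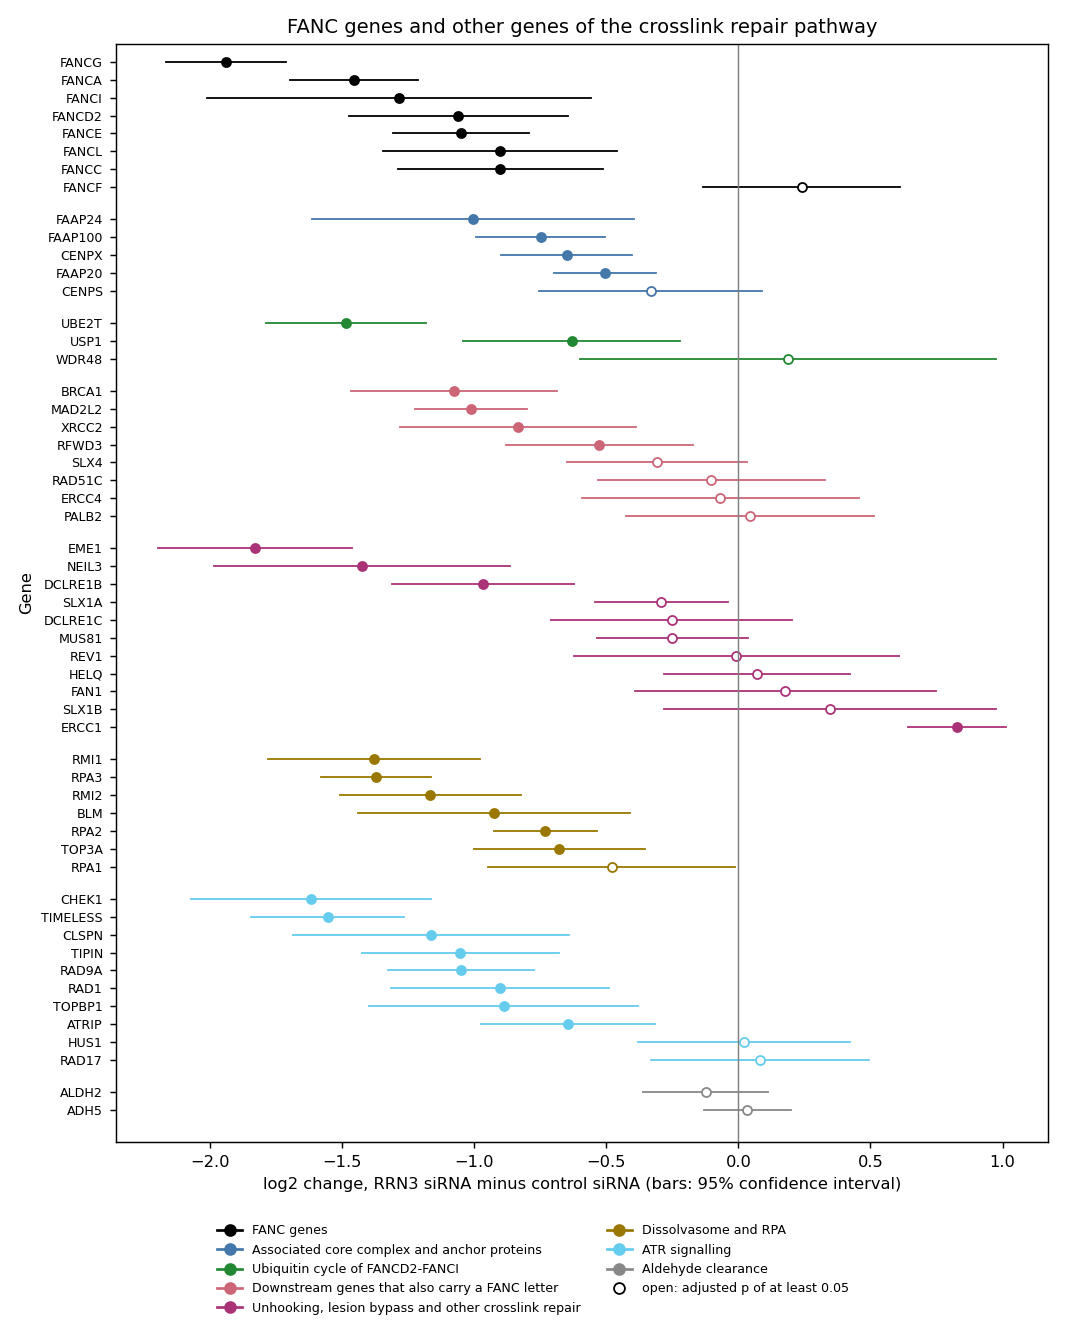
log2 change (RRN3 siRNA minus control siRNA, on log2(TPM + 1)) with its 95% confidence interval for the 8 FANC genes tested and other tested genes of the pathway, coloured by list. Filled points passed a limma adjusted p of 0.05. FANCG has the lowest value of the genes shown (-1.94) and ERCC1 the highest (0.83).

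Genes of replication moved with the FANC genes. All 7 replication markers (MCM2 to MCM7 and PCNA) fell, against 19.0% of all genes tested. Their median log2 change was -1.79, lower than the FANC median of -1.05, and MCM5 was lowest at -2.34. Of these, MCM5 fell from 112 ± 10.3 to 21.3 ± 1.37 TPM, MCM3 from 142 ± 14.9 to 36.3 ± 4.62 TPM, MCM2 from 86.7 ± 8.04 to 24.4 ± 0.940 TPM and MCM7 from 306 to 99.2 TPM. Their part in the FANC result was not tested. The median of the 8 FANC genes over the 6 libraries, each taken as log2(TPM + 1) minus the control mean, was 0.03, -0.02 and -0.01 in control siRNA and -0.82, -1.15 and -1.11 in RRN3 siRNA libraries. The 5 genes outside the family with the smallest root mean square distance from that profile over the 6 libraries were IQCC (0.0417), AKNA (0.0535), TIPIN (0.0540), DDX12B (0.0604) and DIAPH3 (0.0610). TIPIN, the partner of TIMELESS, fell from 10.8 ± 0.497 to 4.74 ± 1.04 TPM. The 5 were picked by this distance, so their fall is no separate result, and the profile rests on 2 groups of 3 libraries. FANCC was the member nearest to the profile (0.116) and FANCF the farthest (0.903).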

How the data were processed

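RNA of HCT116 cells was sequenced in 2 groups of 3 libraries, and the groups and replicate numbers were taken from the titles. The values are TPM, computed by the authors before deposit. STAR, Salmon and GRCh38 appear in the submitters' processing notes with no role, and the sources used here give no versions, annotation or filters. Sequencing depth cannot be read from TPM and is unknown, so no counting intervals are given. Per the labels, ribosomal RNA was removed and the molecule was poly(A) RNA.

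Genes with a mean of at least 1 TPM over the 6 libraries (12157) were fitted on log2(TPM + 1) by limma (3.58.1, under R 4.3.3). The model held the group alone, with eBayes and an intensity trend, Benjamini-Hochberg adjustment over all genes tested and a threshold of 0.05. The minimum was a mean over both groups, so a gene under 1 TPM in 1 group could be kept by the other, as CD68 was. On this scale the change of low genes is understated. "Fell", "rose" and "passed" refer to this threshold. The fit was also run on simulated data with independent errors. Those data lacked the shift of both libraries numbered 1, so they cannot show how the fit handles it. GC content, of the longest protein-coding transcript, was known for 99.9% of the tested genes, and its trend was removed by loess with a span of 0.3. Tables and plots were made with Python 3.11.15, pandas 2.3.3 and matplotlib 3.10.9, and the permutation test with scipy 1.17.1.

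The members and lists were chosen with earlier results of these data known. Named genes are all members and, in each list, up to 4 with the smallest adjusted p past the threshold, those that moved against the list, and the most abundant one that did not pass, and 1 gene that this rule names is not reported here. Alternatives were other pseudocounts, filters, scalings and variance settings, GC correction, a replicate block and left-out libraries.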

Additional observations from a re-analysis of the deposited data

How the results depend on the processing

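Of the 17 alternatives, 7 FANC genes fell in 13 and 6 in the other 4, FANCI being the gene lost, and FANCA, FANCC, FANCD2, FANCE, FANCG and FANCL passed in all 17. The median log2 change of the FANC genes stayed between -1.17 and -0.975. FANCF did not pass in any of the 16 that tested it (adjusted p 0.0691 to 0.567). Over all genes 3679 changed, 5546 with a replicate block, and 2240 to 4254 when 1 library was left out. The numbers are not shown to pair libraries, although deviations of same-numbered libraries correlated at 0.419, 0.0954 and 0.159. Control siRNA 1 correlated best with RRN3 siRNA 1 (at -0.198 and -0.338 with RRN3 siRNA 2 and 3), and control siRNA 3 with RRN3 siRNA 3. Control siRNA 2 instead correlated best with RRN3 siRNA 3, at 0.194. The block moved no FANC call, while RPA1 and SLX1A passed with it (adjusted p = 0.00682 and 0.0263). The log2 change of some genes with small changes turned sign in some alternatives, while ADH5, at 0.0347, kept its sign in all 17. VRK2 was at 0.0471 with median-of-ratios scaling, 0.0691 with quantile normalization, 0.00633 after GC correction and 0.0506 with neither library numbered 1, where HUS1 was at -0.181 and WDR48 at -0.158. With 1 library left out the ranges were -0.135 to 0.16 for VRK2, -0.0861 to 0.162 for HUS1, -0.209 to 0.453 for WDR48, -0.251 to 0.074 for RAD51C, -0.0758 to 0.357 for GAS2 and -0.0144 to 0.191 for POLG. The cause was not tested.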
